A study of Mus musculus with 74 samples.

Results

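The circadian clock genes described here are 10 of the 53379 genes counted: Arntl, Clock, Per1, Per2, Per3, Cry1, Nr1d1, Nr1d2, Dbp and Tef. They were chosen by name as parts of the molecular clock and its direct outputs, and all 10 had reads in every group of mice. In the molecular clock, ARNTL (also called BMAL1) and CLOCK pair on E-box sequences and activate the Per and Cry genes, whose proteins return to repress that pair. The REV-ERB receptors encoded by Nr1d1 and Nr1d2 repress Arntl, and Dbp and Tef encode PAR bZIP factors that bind D-box sequences in output genes. Clocks of this kind run in most tissues, peripheral ganglia included, and Per1 is also a known target of the glucocorticoid receptor.

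RNA was sequenced from lumbar (L4) dorsal root ganglia (DRG), which hold the cell bodies of sensory neurons, in female mice. Whole DRG came from C57BL/6 wild-type mice of 10 to 12 weeks, 4 uninjured and 4 at 1 day after spinal cord injury (SCI), a thoracic dorsal hemisection, with 1 library a mouse. Neurons were sorted by fluorescence (FACS) for YFP from Thy1YFP16 mice of 10 to 20 weeks, from 6 naive mice and from 4 mice each at 1 day and 3 days after SCI or after sciatic nerve injury (SNI), a crush of the nerve. Each of these 22 mice gave 3 wells of about 100 cells, 66 libraries in all. The Thy1-driven YFP marks mainly large-diameter neurons, and the label is the reporter, not the injury. The hour of day at which tissue was taken is not given in the sources used here.

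Whole DRG libraries held 21959030 to 44493319 reads on genes, with a median of 38172044.5 in uninjured mice and 28660121 after SCI. The 3 wells of a sorted mouse summed to between 30518187 and 83599972 reads on genes, while single wells ranged from 1494217 to 49015375. Spread between mice was far larger in the sorted neurons, with a biological coefficient of variation of 1.19 against 0.133 in whole DRG. Levels are given as CPM, the count of a gene relative to all reads on genes of its library, with library sizes scaled by TMM for mice and not scaled for single wells.

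The first question was whether clock transcripts differed in whole DRG 1 day after SCI. Per1 was the 1 member of 10 that passed the test, and it was higher after SCI, while 408 of 17616 genes tested passed (2.32% of all genes tested). Over all genes tested, 2570 had an unadjusted p under 0.05, and DESeq2 called 929 of 17615 with an adjusted p. Per1 encodes a PERIOD protein of the repressor complex. It measured 14.5, 18.5, 14.0 and 12.2 CPM in uninjured mice 1 to 4 and 21.3, 26.9, 39.6 and 20.8 CPM in SCI mice 1 to 4. Every SCI library lay above every uninjured library, and SCI mouse 3 was the highest. The number of all genes tested whose groups separated in this way was not counted. The log2 fold change was 0.88 (SE 0.21, n = 4 and 4, edgeR adjusted p = 0.0806), from 311 to 823 reads a library in uninjured mice and 463 to 1710 after SCI. In these bulk samples a change in the number of cells and a change in RNA per cell cannot be told apart.

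The Per1 call depended on single libraries. Leaving out 1 mouse at a time gave edgeR adjusted p values from 0.0717 to 0.217. The call was lost without uninjured mouse 1 (0.119), 2 (0.122), 3 (0.217) or 4 (0.206) and without SCI mouse 1 (0.108) or 2 (0.178), with log2 fold changes from 0.79 to 1.01 in these 6 fits. It was kept without SCI mouse 3, the highest, or SCI mouse 4, with log2 fold changes from 0.64 to 0.98. Over all genes edgeR called 484 without uninjured mouse 1 and 104 to 169 in the others of the 6 fits, against 408 with all mice. The Per1 call was also lost with the replicate number as a block (log2 fold change 0.84, edgeR adjusted p = 0.118), whereas DESeq2 gave an adjusted p of 0.00252.

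**Figure D1:**
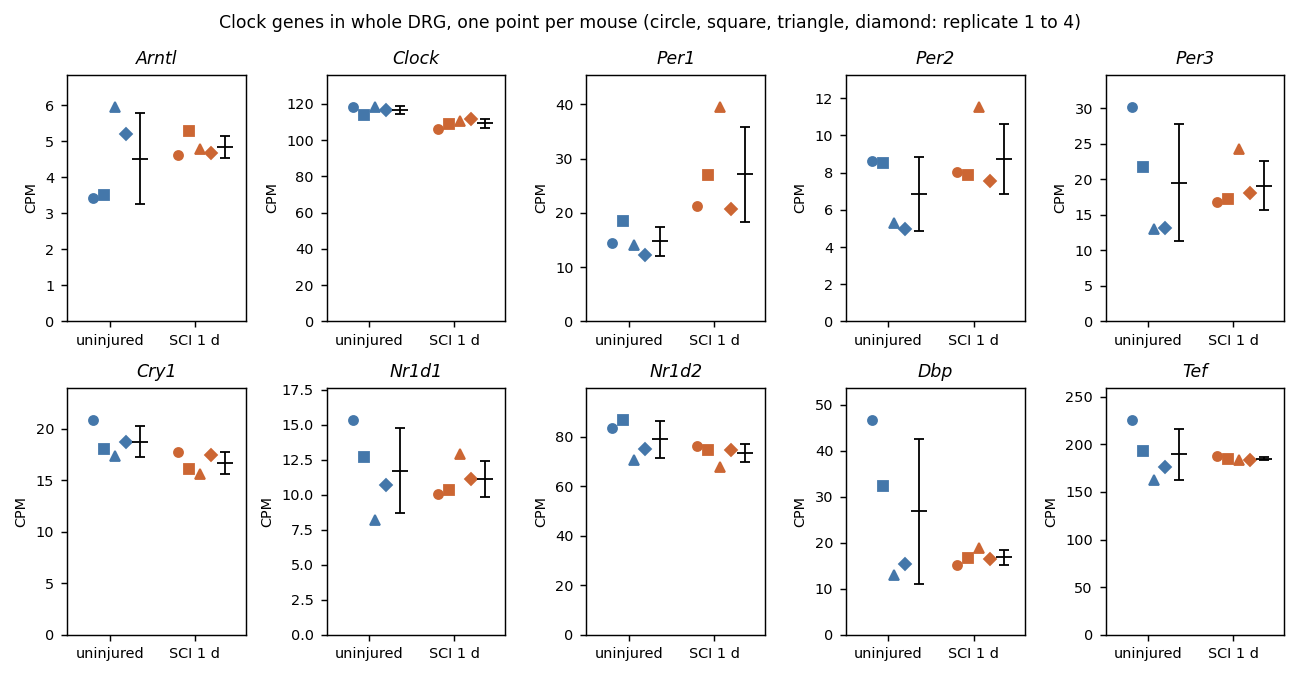
Level of each of the 10 clock genes (CPM) in the 4 uninjured and 4 SCI whole DRG libraries, 1 point a mouse. Per1 is the gene whose SCI libraries, at 20.8 to 39.6 CPM, all lie above the uninjured ones, at 12.2 to 18.5 CPM.

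The activators showed smaller differences. Clock, whose protein is the partner of ARNTL, measured 118, 114, 118 and 116 CPM in uninjured mice and 106, 109, 110 and 112 CPM after SCI. These groups did not overlap either, but the log2 fold change was only -0.09 (SE 0.05) and edgeR gave an adjusted p of 0.465. Without a count over all genes, separation of the groups does not set Per1 or Clock apart. Arntl, which encodes BMAL1, measured 3.41, 3.51, 5.96 and 5.19 CPM in uninjured mice and 4.60, 5.27, 4.79 and 4.67 CPM after SCI. Uninjured mice 1 and 2 were the lowest of all 8 libraries for Arntl and uninjured mouse 3 the highest, so the groups overlapped (log2 fold change 0.09, edgeR adjusted p = 0.862). Without uninjured mouse 1 or 2 the Arntl estimate changed sign, to -0.01 and -0.02.

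Among the other repressors, Per2 measured 8.60, 8.50, 5.30 and 4.95 CPM in uninjured mice and 8.03, 7.87, 11.5 and 7.55 CPM after SCI. Per3, the third PERIOD gene, measured 30.2, 21.7, 12.98 and 13.1 CPM and then 16.8, 17.2, 24.2 and 18.1 CPM. Both genes had their highest SCI value in mouse 3, and their groups overlapped. For Per2 the log2 fold change was 0.37 (SE 0.21, edgeR adjusted p = 0.464), and for Per3 it was -0.02 (SE 0.25, edgeR adjusted p = 0.983). The Per3 estimate had no stable sign, ranging from -0.17 to 0.26 as each mouse was left out. Cry1, whose cryptochrome protein acts with the PERIOD proteins, ranged from 17.3 to 20.8 CPM in uninjured mice and from 15.6 to 17.8 CPM after SCI (log2 fold change -0.16, SE 0.09, edgeR adjusted p = 0.427).

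Nr1d1, encoding REV-ERB alpha, measured 15.3, 12.7, 8.23 and 10.7 CPM in uninjured mice and 10.1, 10.4, 12.9 and 11.1 CPM after SCI. All SCI values lay inside the uninjured range. Nr1d2, encoding REV-ERB beta, ranged from 70.6 to 86.7 CPM in uninjured mice and from 67.9 to 76.4 CPM after SCI. Log2 fold changes were -0.07 for Nr1d1 (edgeR adjusted p = 0.895) and -0.11 for Nr1d2 (edgeR adjusted p = 0.582), and the Nr1d1 estimate was 0.08 without uninjured mouse 1.

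Dbp, a PAR bZIP activator, measured 46.7, 32.3, 12.98 and 15.4 CPM in uninjured mice and 15.1, 16.7, 19.0 and 16.4 CPM after SCI. Uninjured mice 1 and 2 stood high and mice 3 and 4 lay at or near the SCI values, so the log2 fold change of -0.66 (SE 0.34) did not pass (edgeR adjusted p = 0.413). Without uninjured mouse 1 it was -0.27. Tef, a second PAR bZIP gene, measured 226, 193, 163 and 177 CPM in uninjured mice and 187, 185, 184 and 183 CPM after SCI. Its SCI libraries were nearly equal while the uninjured ones spread around them (log2 fold change -0.03, edgeR adjusted p = 0.902), and the estimate was 0.06 without uninjured mouse 1. Over all 10 members, 3 estimates were above 0 and 7 below, with a median log2 fold change of -0.05 beside 0.01 for all genes tested, and 1 member had an unadjusted p under 0.05.

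Some of these genes share exon sequence with a gene on the opposite strand. Dbp shares 539 exon bases (18.0% of its exon bases) with Sphk2, and Nr1d1 shares 263 (8.55%) with Thra. Sphk2 measured 78.5, 65.3, 64.2 and 61.1 CPM in uninjured mice and 51.4, 59.0, 60.2 and 53.6 CPM after SCI (log2 fold change -0.26, edgeR adjusted p = 0.220). Its highest library was uninjured mouse 1, as for Dbp. Thra was also highest in uninjured mouse 1, like Nr1d1, with 291 CPM of Thra against 232 to 253 CPM in the other libraries (log2 fold change -0.06, edgeR adjusted p = 0.743). Tef shares 193 exon bases with Gm17597 and Arntl 33 with Gm45355, both also antisense.

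Levels were compared between genes only per kilobase of exon length. In uninjured whole DRG the mean level was 24.1 CPM per kb for Tef, then 14.6 for Nr1d2, 8.96 for Dbp, 8.49 for Clock, 5.61 for Cry1, 3.81 for Nr1d1, 2.63 for Per1, 2.03 for Per3, 1.17 for Per2 and 0.6002 for Arntl. Neighbours in this order overlapped over the 4 mice for Nr1d2 and Dbp, Dbp and Clock, Nr1d1 and Per1, Per1 and Per3, and Per3 and Per2. After SCI the order was Tef, Nr1d2, Clock, Dbp, Cry1, Per1, Nr1d1, Per3, Per2 and Arntl, from 23.5 to 0.643 CPM per kb. Per1 then had a mean of 4.82 CPM per kb and Nr1d1 3.61. Neighbours overlapped for Dbp and Cry1, Cry1 and Per1, Per1 and Nr1d1, and Per3 and Per2.

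Spread within a group was itself uneven. Among the 12490 genes with a mean of at least 100 reads, the coefficient of variation of Dbp over the 4 uninjured mice was 0.588, and 16 genes (0.128%) had a larger one. That of Per3 was 0.422, exceeded by 63 genes (0.504%), and those of Per2, Arntl and Nr1d1 were 0.290, 0.279 and 0.257, beside a median of 0.0837 over these genes. Clock had 0.0183 in the same mice. After SCI the coefficient of Dbp was 0.0952 and that of Tef 0.00950, close to and below the median of 0.0908, and Per1 had 0.322, exceeded by 282 genes (2.26%). The minimum of 100 reads was chosen after values were seen.

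Levels of several members were related to Dbp over the 8 whole DRG libraries. Nr1d1 had r = 0.88 (exact permutation p = 0.000769, adjusted p = 0.00647 over 9 relations) and rho = 0.90 (exact permutation p = 0.00456, adjusted p = 0.0205), and r = 0.96 without the 2 libraries farthest from the median, uninjured mice 1 and 2 (exact permutation p = 0.0167). Per3 had r = 0.85 (exact permutation p = 0.00404, adjusted p = 0.00910), rho = 0.93 (exact permutation p = 0.00223, adjusted p = 0.0201) and r = 0.88 without those libraries (exact permutation p = 0.0403). Both relations thus kept their sign among the 6 libraries that lay close together in Dbp. These libraries were picked by the Dbp values themselves, so they give no independent support. The p values for 6 libraries were not adjusted over the 9 relations.

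Arntl ran the other way, with r = -0.93 (exact permutation p = 0.00216, adjusted p = 0.00647), but rho was -0.64 (exact permutation p = 0.0962, adjusted p = 0.173) and r was -0.65 without uninjured mice 1 and 2 (exact permutation p = 0.171). Tef had r = 0.90 (exact permutation p = 0.00144, adjusted p = 0.00647), rho = 0.74 (exact permutation p = 0.0458, adjusted p = 0.103, the same as for Per2) and r = 0.75 without them (exact permutation p = 0.117). For both genes the sign was the same in the 6 libraries, while the exact permutation p was above 0.05 with n cut to 6. Adjusted p values of r were 0.0628 for Nr1d2 and between 0.184 and 0.779 for Clock, Per1, Per2 and Cry1 in exact permutation tests. Without uninjured mice 1 and 2, r went from -0.12 to 0.82 for Per1 (exact permutation p = 0.0556) and from 0.46 to 0.81 for Per2 (exact permutation p = 0.0653), and it turned negative for Clock (0.36 to -0.51), Cry1 (0.61 to -0.63) and Nr1d2 (0.77 to -0.26). Dbp was picked for these relations after its values were seen, all tests were two-sided, and 4 libraries a group were too few for r within a group. How many of all genes had an r with Dbp of this size was not counted, so the relations are not shown to be particular to clock genes.

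**Figure D2:**
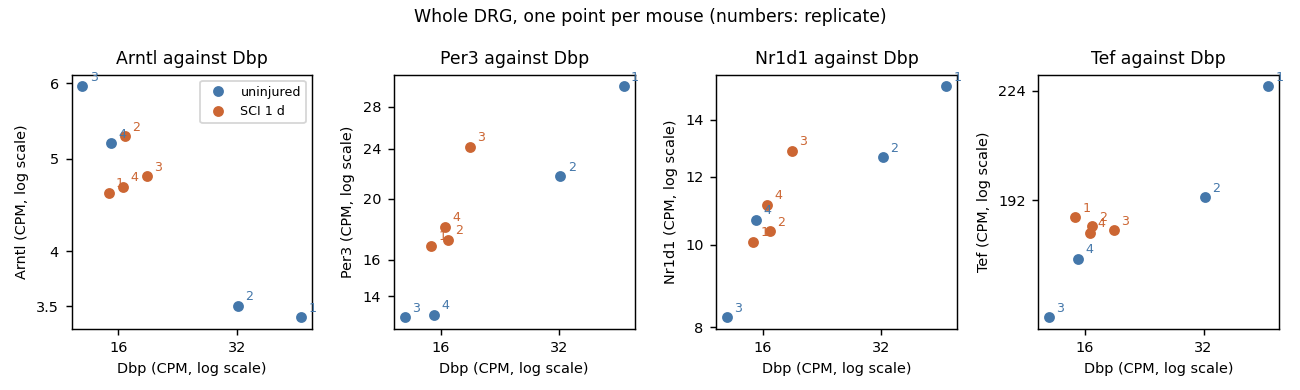
Level of Arntl, Per3, Nr1d1 and Tef against that of Dbp (CPM, log axes) in the 8 whole DRG libraries, numbered by mouse within the uninjured and SCI groups. Uninjured mice 1 and 2, at 46.7 and 32.3 CPM of Dbp, lie apart from the other libraries at 12.98 to 19.0 CPM.

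Outside the clock genes, the genes most like Dbp over the 8 libraries, among 12981 compared by Pearson correlation of log2 CPM, were Usp20 (r = 0.946), Mafa (r = 0.939) and Vps52 (r = 0.937). Those most like Arntl were Ccdc77 (r = 0.956), Aif1l (r = 0.947) and Eri2 (r = 0.931). They are given as a description only. Usp20 measured 410 CPM in uninjured mouse 1, 358 CPM in mouse 2 and 330 to 344 CPM in the other libraries.

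Other genes of the clock were counted from a list of 20. In whole DRG 19 were tested and 0 passed by edgeR, with a median log2 fold change of 0.08 and 4 genes at an unadjusted p under 0.05, beside 2570 of 17616 over all genes. Among them were Usp2 (0.38, edgeR adjusted p = 0.185), Fbxl21 (0.39, edgeR adjusted p = 0.170) and Nfil3 (0.36, edgeR adjusted p = 0.299), named after their values were seen. Nfil3 encodes a repressor at D-boxes, and FBXL21 acts on the stability of cryptochromes. DESeq2 called 2 of the list, Usp2 and Fbxl21, both higher, beside 929 of 17615 genes in all.

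Genes known to respond to glucocorticoids were also higher after SCI. Of 12 tested, 7 were higher after SCI by edgeR (Cdkn1a, Dusp1, Fkbp5, Klf15, Mt1, Mt2 and Zbtb16) and 0 lower, with a median log2 fold change of 0.60, while DESeq2 called 9, all higher. Zbtb16, a zinc finger transcription factor, measured 9.49, 7.87, 8.07 and 9.59 CPM in uninjured mice and 18.1, 20.1, 20.0 and 20.4 CPM after SCI (log2 fold change 1.17, edgeR adjusted p = 0.000535). The list summed to 565, 677, 697 and 731 CPM in uninjured mice and 814, 1029, 887 and 909 CPM after SCI, its most abundant gene was Tsc22d3, and none of its genes was at 0. Its groups did not overlap, and its part in the Per1 difference was not tested. As each of the 8 mice was left out in turn, Zbtb16, Klf15 and Mt2 passed in 8 fits, Cdkn1a and Fkbp5 in 4, Mt1 in 3 and Dusp1 in 1.

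Early response genes, which neuronal activity induces, had 9 of 10 tested and 0 called by edgeR, with a median of 0.06 and 3 at an unadjusted p under 0.05, and DESeq2 called 1 (Arc, lower). For these and all other whole DRG lists, edgeR had 2570 of 17616 genes in all at an unadjusted p under 0.05. It called 408 of them, and DESeq2 called 929 of 17615. Among injury genes Atf3 (2.39) and Jun (0.68) were higher, with 5 of 6 tested and a median of 0.49. Blood markers were also higher after SCI in most mice. Of 5, 4 were called higher by edgeR (median 1.62), and they summed to 21.3, 20.2, 19.3 and 13.4 CPM in uninjured mice and 61.1, 88.5, 70.0 and 20.7 CPM after SCI, with Hbb-bs most abundant and none at 0. SCI mouse 4 lay inside the uninjured range of this sum, and the highest was SCI mouse 2, not mouse 3 as for Per1. Macrophage markers had 1 of 8 higher by edgeR (Itgam, 1.14, list median 0.39), with all 8 estimates above 0 and 5 at an unadjusted p under 0.05, and DESeq2 called 3, all higher. They summed to 76.8, 85.5, 88.0 and 65.0 CPM and then 113, 102, 95.1 and 104 CPM, with Lyz2 most abundant and none at 0. The part of either cell type in the Per1 difference was not tested. With each mouse left out, Atf3 and Jun passed in all 8 fits, Hbb-bs in 5, Itgam in 4, Hbb-bt and Hba-a1 in 2 and Hba-a2 in 1.

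Of the remaining marker lists in whole DRG, none of 8 neuron markers (median -0.03), 9 glia markers (-0.13), 5 neutrophil markers (0.72) or 5 endothelial markers (0.04) passed by edgeR, with 0, 4, 0 and 1 at an unadjusted p under 0.05. Of 6 nociceptor markers Mrgprd was lower (-0.32, list median -0.03), and of 5 fibroblast markers Lum was lower (-0.71, list median -0.20), and with each mouse left out these passed in 3 and 2 of 8 fits. DESeq2 called 0 neuron, 2 glia (among them Apoe, lower), 0 neutrophil and 0 endothelial markers.

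The next question was whether the labelled neurons themselves differed in clock transcripts after either injury. None of the 10 members passed by edgeR in any of the 4 comparisons with naive mice, where 0.519% of 23507 genes were called at 1 day and 0.442% at 3 days after SNI, and 0.0468% at 1 day and 0.051% at 3 days after SCI. DESeq2 with the same factors also called 0 members in each. In the same order it called 1447 of 21684, 2148 of 21684, 1087 of 22595 and 1114 of 23051 genes with an adjusted p. At an unadjusted p under 0.05 there was 1 member at 1 day after SNI, 1 at 1 day after SCI and 0 in the others, beside 3283 and 3106 of 23507 genes after SNI and 2625 and 2248 after SCI, so these counts were near the background. Median log2 fold changes of the members were 0.21 and -0.17 after SNI and 0.59 and 0.02 after SCI at 1 and 3 days, beside 0.15, -0.01, 0.15 and 0.01 for all genes. These comparisons share the naive mice, and in each the groups overlapped for every member with all wells used.

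Arntl was the member at 1 day after SNI. It measured 0.0186, 1.19, 3.30, 0.524, 0 and 0 CPM in naive mice 1 to 6 and 8.32, 0.349, 2.35 and 1.47 CPM in SNI mice 1 to 4. SNI mouse 1 lay above all naive mice and the other 3 among them (log2 fold change 3.41, SE 1.40, edgeR adjusted p = 0.286). Of the 412 Arntl reads of SNI mouse 1, 283 came from well b, 1 of the wells rich in glial transcripts described below, and without such wells the estimate was 2.65 (SE 1.44, unadjusted p = 0.0822, edgeR adjusted p = 0.305). The mice came in sets labelled FACS and FACS2018, and within these sets the difference of mean log2(CPM + 1) was 0.86 and 1.52.

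Clock was the member at 1 day after SCI. It ranged from 12.2 to 71.1 CPM in naive mice (median 27.9) and measured 94.6, 26.1, 79.9 and 24.8 CPM after SCI. SCI mice 1 and 3 were above all naive mice and mice 2 and 4 among them (log2 fold change 1.04, SE 0.45, edgeR adjusted p = 0.393), with differences of 0.94 and 0.57 within the sets. Without the wells rich in glial transcripts, described next, the Clock estimate was 0.01 (edgeR adjusted p = 1.00). At 1 day after SNI it went from 0.15 to -0.55 without them (SE 0.23, unadjusted edgeR p = 0.0259, edgeR adjusted p = 0.175). The SNI mice, at 16.6 to 20.2 CPM, then lay below all naive mice, at 21.2 to 34.3 CPM. In that comparison 4771 of 22620 genes had an unadjusted edgeR p under 0.05 and 1378 were called, so such a p was common. Separation of the groups was not counted over all genes.

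Many sorted wells carried glial transcripts. In 20 of 66 wells, from 14 mice, 9 glia markers held 3.18 to 14.4% of reads (median 7.48%), against 0.17 to 1.28% (median 0.390%) in the other 46. Neuron markers had a median of 0.048% of reads in these 20 wells and 3.46% in the rest. Of the 20 wells, 13 were in the FACS2018 set and 7 in the FACS set. The sort was for YFP, and the limit of 2% was chosen with earlier results known.

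By share of reads pooled over wells of unlike depth, Nr1d1 and Per3 were the members held most in these wells. The 20 wells held 79.1% of all Nr1d1 reads, 77.0% of Per3 reads and 66.9% of Dbp reads. They held 47.8% of Nr1d2 reads, 44.4% of Tef, 43.1% of Clock, 39.9% of Per1, 33.9% of Per2, 23.0% of Cry1 and 14.4% of Arntl reads. These shares were not set against the share of all reads on genes that the 20 wells held. A share alone therefore does not show that a gene was enriched or depleted there. Per3 reached 100 CPM or more in 16 of the 20 wells and in 0 of the other 46, with medians of 178 and 15.8 CPM. For Nr1d1 the medians were 5.86 and 12.5 CPM, and 7 of the 20 wells were at 100 CPM or more, up to 715 CPM in well b of naive mouse 5. Most of these wells were thus high for Per3, while for Nr1d1 some were far above and many below the other wells. For Dbp the medians were 0.0437 CPM in the 20 wells and 0.398 CPM in the other 46, with up to 32.5 CPM in the 20.

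In naive mice Nr1d1 ranged from 4.48 to 358 CPM with a median of 13.6. It measured 5.49, 9.18, 149 and 7.30 CPM at 1 day and 5.42, 9.90, 155 and 10.9 CPM at 3 days after SNI, and 20.7, 12.1, 139 and 10.7 CPM at 1 day and 9.09, 16.1, 116 and 72.9 CPM at 3 days after SCI. Mouse 3 was the highest of each injured group, and all mice numbered 3 and 4 there belong to FACS2018. By set the median was 9.70 CPM in FACS and 98.9 CPM in FACS2018.

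Per3 ranged from 15.1 to 321 CPM in naive mice with a median of 76.2. It measured 22.3, 21.8, 81.6 and 6.58 CPM at 1 day and 28.4, 16.7, 238 and 26.0 CPM at 3 days after SNI, and 63.7, 14.3, 73.4 and 7.28 CPM at 1 day and 22.02, 17.5, 380 and 45.1 CPM at 3 days after SCI. Again mouse 3 was highest in each injured group, and naive mice 5 and 6 were the highest naive ones. The log2 fold change at 1 day after SNI was -1.29 (SE 0.63, edgeR adjusted p = 0.366), with differences of -0.52 in FACS and -3.45 in FACS2018. Without the wells rich in glial transcripts the estimate was 0.16 (SE 0.55, edgeR adjusted p = 0.938).

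Glia markers summed to 9121, 13803, 3630, 5172, 63761 and 91129 CPM in naive mice 1 to 6, and to 12544, 13816, 35967 and 3520 CPM and then 9772, 3313, 123328 and 6694 CPM at 1 and 3 days after SNI. After SCI they summed to 17983, 15856, 46829 and 7269 CPM at 1 day and 2990, 3212, 56023 and 42551 CPM at 3 days. Pmp22 was the most abundant in every mouse, and Kcnj10 was at 0 in naive mouse 1. Other lists were high in some of the mice high in Nr1d1 or Per3. Glucocorticoid genes summed to 4854 and 8971 CPM in naive mice 5 and 6. In mouse 3 they summed to 2231 and 6464 CPM at 1 and 3 days after SNI. In mouse 3 at 1 and 3 days after SCI they summed to 5681 and 7066 CPM, against 743 to 4337 CPM in the other 16 mice. Early response genes summed to 6749 and 8299 CPM in naive mice 5 and 6, to 5413 and 11293 CPM in mouse 3 at 1 and 3 days after SNI and to 5642 and 11162 CPM in mouse 3 at 1 and 3 days after SCI, against 272 to 2906 CPM in the other 16 mice. Fos was their most abundant gene in every mouse, and of these 6 mice Npas4 was at 0 in all but mouse 3 at 3 days after SNI and mouse 3 at 1 day after SCI. Fibroblast markers summed to 66762 CPM in mouse 3 at 3 days after SCI, the highest for Per3, to 13011 CPM in naive mouse 5, the highest for Nr1d1, and to 28.1 to 869 CPM in the other 20, with Dcn most abundant in these 2 mice and none at 0 there. In wells a, b and c of mouse 3 at 3 days after SCI, fibroblast markers held 4.34%, 5.80% and 2.98% of reads, glia markers 4.10%, 3.18% and 4.71% and neuron markers 1.13%, 0.0088% and 0.0348%, and Per3 measured 5.59, 485 and 231 CPM. Macrophage markers summed to 5171 CPM in that mouse, with Lyz2 most abundant and none at 0, and to at most 1054 CPM in the others. Neuron markers summed to 8461 and 8653 CPM in naive mice 5 and 6 and to 5621 CPM in mouse 3 at 3 days after SCI. In the other mice they summed to 18921 to 36203 CPM. The part of any of these lists or cell types in the levels of Nr1d1 and Per3 was not tested. Without the glial wells Nr1d1 in naive mice ranged from 4.78 to 18.0 CPM (median 12.5) and Per3 from 1.97 to 70.3 CPM (median 18.0), and 3 mice remained in each group at 3 days.

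**Figure D3:**
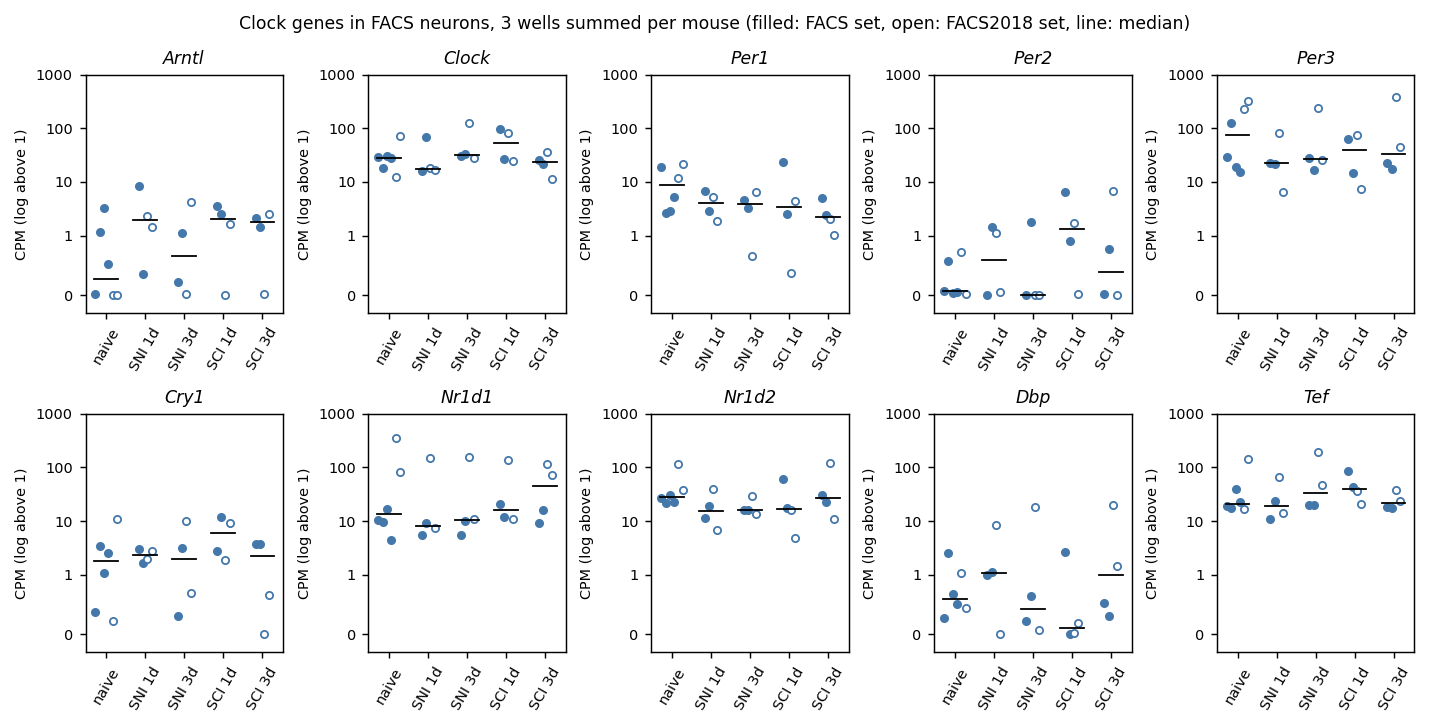
Level of the 10 clock genes (CPM, linear to 1 and logarithmic above) in each of the 22 mice of sorted neurons, filled points for the FACS set, open points for FACS2018 and a line at each group's median. In Nr1d1 the open points reach 358 CPM in naive mice while the filled points stay at or below 20.7 CPM.

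The other members were given by few reads or overlapped widely. Per1 ranged from 2.58 to 21.9 CPM in naive mice. It measured 23.1, 2.54, 0.379 and 4.35 CPM at 1 day after SCI, mouse 1 above and mice 2 and 3 below every naive mouse. The log2 fold change was -0.58 (SE 1.00, edgeR adjusted p = 0.921), with differences of 0.53 in FACS and -2.67 in FACS2018. It ranged from -2.22 to -0.09 as each mouse was left out. Per1 measured 4.99, 2.37, 2.00 and 1.02 CPM at 3 days after SCI, all but the highest below every naive mouse (log2 fold change -2.11, SE 1.05, edgeR adjusted p = 0.534). In naive mouse 1, 813 of 999 Per1 reads came from well c, which was rich in glial transcripts and also held 1.41% of reads in blood markers, against at most 0.0007% in any other sorted well. Without the wells rich in glial transcripts the estimate was -0.73 (SE 0.84, edgeR adjusted p = 0.815). Per2 ranged from 0.0260 to 0.730 CPM in naive mice. It had 0 reads in 3 of 4 mice at 3 days after SNI, where 3 reads would have been 0.0436 to 0.0778 CPM. The estimate there was 1.56 (SE 2.14, edgeR adjusted p = 0.815), from -6.81 to 2.91 as each mouse was left out. At 1 day after SCI Per2 measured 6.56, 0.903, 1.70 and 0.0150 CPM, with mice 1 to 3 above every naive mouse. The log2 fold change was 3.81 (SE 2.20, edgeR adjusted p = 0.553). Without the wells rich in glial transcripts it was 4.14 (SE 2.16, edgeR adjusted p = 0.359). Per2 had 0 reads in 40 of 66 wells, Arntl in 35, Dbp in 23 and Cry1 in 17.

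Cry1 ranged from 0.226 to 11.03 CPM in naive mice and from 0 to 11.8 CPM over the injured mice. Nr1d2 ranged from 21.98 to 118 CPM in naive mice and from 4.81 to 123 CPM after injury. At 1 day after SNI, 3 days after SNI and 1 day after SCI, 3 of 4 mice lay below every naive mouse. The Nr1d2 log2 fold changes there were -0.86, -0.95 and -0.34 (edgeR adjusted p = 0.576, 0.518 and 0.927). At 3 days after SCI 1 mouse lay below and 1 above every naive mouse (log2 fold change 0.03). How many of all genes tested had mice placed like this was not counted. Without the wells rich in glial transcripts, Nr1d2 ranged from 8.13 to 34.4 CPM in naive mice. It then ranged from 7.88 to 25.3 CPM at 1 day and 2.93 to 17.0 CPM at 3 days after SNI. At 1 day after SCI it ranged from 5.22 to 30.9 CPM. Dbp reached 2.55 CPM in naive mice and 19.9 CPM after injury, in mouse 3 at 3 days after SCI. Tef ranged from 16.9 to 145 CPM in naive mice and from 10.9 to 197 CPM after injury. For these 4 genes the injured and naive ranges overlapped in each comparison.

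Per kilobase the naive order was Nr1d1 at 26.0 CPM per kb, Per3 12.8, Nr1d2 7.97, Tef 5.52, Clock 2.27, Per1 1.87, Cry1 0.933, Dbp 0.309, Arntl 0.111 and Per2 0.0422, and every pair of neighbours overlapped over the 6 mice. Naive mouse 5 had 358 CPM of Nr1d1 against a group median of 13.6, so the first place of Nr1d1 is not firm.

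SNI was also compared with SCI directly. At 1 day and at 3 days edgeR called 0 members and 0 of 23507 genes (0% of all genes), with 0 members in either at an unadjusted p under 0.05 and 2380 and 1916 genes. DESeq2 was not run for these contrasts. Median log2 fold changes of the members, SNI minus SCI, were -0.60 and -0.23 beside 0.00 and -0.02 for all genes. Clock had -0.89 at 1 day (SE 0.50, edgeR adjusted p = 0.557) and 0.87 at 3 days (SE 0.50, edgeR adjusted p = 0.626). Without the wells rich in glial transcripts it had -0.56 at 1 day (SE 0.24, unadjusted edgeR p = 0.0323, edgeR adjusted p = 0.338). Clock then measured 16.6 to 20.2 CPM after SNI and 25.3 to 33.1 CPM after SCI. In that contrast 3072 of 22620 genes had an unadjusted edgeR p under 0.05 and 143 were called. At 3 days without those wells the Clock estimate was 0.48 (SE 0.28, edgeR adjusted p = 0.689).

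Of the other lists, 0 of 20 other clock genes passed by edgeR in any of the 6 sorted-neuron comparisons, with 5, 4, 0, 2, 2 and 2 at an unadjusted p under 0.05 at 1 and 3 days after SNI, 1 and 3 days after SCI, and in the direct contrasts at 1 and 3 days. Injury genes were called by edgeR after SNI against naive mice, Atf3 (3.78) and Sox11 (3.64) at 1 day and Atf3 (3.05) and Sprr1a (8.21) at 3 days. With each of the 10 mice of a comparison left out, Atf3 passed in 10 fits at 1 day and 5 at 3 days, Sox11 in 3 and Sprr1a in 5. These calls depended on the RUVr factors, since without factors, or with the set as covariate, edgeR called 0 genes in all at either time after SNI, with 2435 and 2970 genes at an unadjusted p under 0.05 at 1 and 3 days without factors and 1999 and 2384 with the set. No gene of the glucocorticoid, early response or cell type lists was called by edgeR in sorted neurons. DESeq2 called 1447, 2148, 1087 and 1114 genes in all at 1 and 3 days after SNI and 1 and 3 days after SCI, of 21684, 21684, 22595 and 23051 with an adjusted p. Of the other clock genes it called 2 higher (Rora and Csnk1e) and 1 lower at 1 day after SNI, 3 higher (Rora and Csnk1e among them) and 2 lower at 3 days after SNI, 1 higher at 1 day after SCI and 1 lower at 3 days after SCI. Of the glucocorticoid genes it called Ddit4 and Tsc22d3 lower at both times after SNI, Mt2 higher at 1 day after SCI and 0 at 3 days after SCI. Over the early response list it called 1 gene, lower, at 1 day after SNI, and 0 glia markers in each of the 4 comparisons. At an unadjusted p under 0.05 edgeR had 2, 3, 1 and 0 glucocorticoid genes, 0, 1, 0 and 0 early response genes and 1, 0, 0 and 0 glia markers in the comparisons with naive mice at 1 and 3 days after SNI and 1 and 3 days after SCI.

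In the same order of comparisons, neuron markers had 2, 4, 0 and 0 genes at an unadjusted p under 0.05 by edgeR and 0, 3, 0 and 0 called by DESeq2, and nociceptor markers 2, 1, 1 and 0 and 2, 4, 1 and 1. Macrophage markers had 4, 1, 1 and 0 by the unadjusted edgeR p and 4, 2, 1 and 0 by DESeq2. These macrophage calls of DESeq2 were higher after SNI and lower at 1 day after SCI. Blood markers had 2, 2, 0 and 2 and then 2, 2, 2 and 4, all lower. Fibroblast markers had 1, 1, 1 and 0 and then 0, 1, 1 and 0, endothelial markers 0, 0, 0 and 1 and then 0 in each, and neutrophil markers 0 in each by both counts. Markers of cells other than the labelled neurons were thus called by DESeq2 in every comparison, and by edgeR in none, beside the far larger number of genes that DESeq2 called in all. In the direct contrasts at 1 and 3 days, macrophage markers had 7 and 0 of 8 at an unadjusted edgeR p under 0.05. Their median log2 fold changes, SNI minus SCI, were 5.86 and -0.62. At 1 day after SNI these markers held 0.1668% of reads in well b of mouse 3, a well rich in glial transcripts. They held at most 0.0045% in any other well of that group and at most 0.001% in any well at 1 day after SCI. The difference at 1 day thus rested largely on 1 well and on values near 0. In the same contrasts glucocorticoid genes had 4 and 2 of 12, with medians of -1.23 and -0.56, beside 2380 and 1916 of 23507 genes in all.

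Promoter windows from RefSeq (GRCm38.p6), 250 bases before to 50 after a transcript start, were searched on both strands for sequences known from clock biology. There were 14 windows for 9 members, Per2 having no entry in the table used, and 5 members held a match. The E-box CACGTG was in windows of Per1, Cry1 and Tef and in 7.15% of all 32851 promoters. The D-box, TTATGTAA or TTACGTAA, was in that of Per3 with 2 matches and in 1.06% of promoters. The ROR element, TAGGTCA or TGGGTCA, the sequence that REV-ERB receptors share with ROR receptors, was in a window of Arntl and in 6.45% of promoters, and the cAMP response element TGACGTCA was in no member window and in 1.79% of promoters. A match describes the letters only.

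A few windows are printed to show these elements, in capitals, for Per1 as the gene called after SCI and for Per3 and Arntl as genes that varied with Dbp. Per1 is at chr11:69098699-69098998 on the + strand, its E-box 166 bases before the start. Per3 is at chr4:151044616-151044915 on the - strand, its D-boxes 205 and 158 bases before the start. Arntl is at chr7:113207261-113207560 on the + strand, with its ROR element after the start.
Per1: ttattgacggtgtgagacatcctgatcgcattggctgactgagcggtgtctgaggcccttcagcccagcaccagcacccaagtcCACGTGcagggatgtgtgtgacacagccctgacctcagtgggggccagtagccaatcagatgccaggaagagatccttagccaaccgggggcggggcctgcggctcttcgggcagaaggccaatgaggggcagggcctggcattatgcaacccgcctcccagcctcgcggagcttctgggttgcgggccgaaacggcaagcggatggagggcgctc
Per3: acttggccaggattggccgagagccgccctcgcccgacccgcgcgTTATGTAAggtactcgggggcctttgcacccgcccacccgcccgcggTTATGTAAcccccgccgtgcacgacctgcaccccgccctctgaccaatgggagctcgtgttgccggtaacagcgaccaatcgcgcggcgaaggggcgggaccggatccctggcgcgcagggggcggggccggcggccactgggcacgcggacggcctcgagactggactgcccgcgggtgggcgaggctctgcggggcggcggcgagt
Arntl: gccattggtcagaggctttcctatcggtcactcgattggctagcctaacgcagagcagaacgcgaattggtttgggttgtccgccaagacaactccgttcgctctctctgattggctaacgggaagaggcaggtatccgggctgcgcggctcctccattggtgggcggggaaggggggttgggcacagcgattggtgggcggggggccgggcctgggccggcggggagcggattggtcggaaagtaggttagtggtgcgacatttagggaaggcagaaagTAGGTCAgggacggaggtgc
In GENCODE vM21 the Per1 gene (ENSMUSG00000020893.17) spans chr11:69095217-69109960 and the Dbp gene (ENSMUSG00000059824.12) chr7:45705088-45710203, both on the + strand of GRCm38.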

How the data were processed

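The authors deposited raw HTSeq counts of reads per gene, 1 file for each of 74 libraries, made with cutadapt, STAR 2.5.3a and HTSeq 0.6.1 on mm10. Each count file holds 53379 genes and 5 lines that name no gene, which were left out and took 33.1 to 37.0% of reads in whole DRG and 42.6 to 66.9% in FACS wells. The strandedness of counting is not stated, so reads from genes that overlap on opposite strands cannot be told apart. The 7 series tables hold the authors' own comparisons, which were not used, and 123 per-sample columns that were not used here. Gene IDs were matched without version to GENCODE vM21 (53274 of 53379).

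For whole DRG, edgeR 4.0.16 in R 4.3.3 tested every gene whose counts averaged 10 or more (TMM, quasi-likelihood F-test, no covariates). FACS wells were summed per mouse, a gene entered if any 1 mouse had 20 or more reads of it, and 2 RUVr factors from centred residuals were added, with all 22 mice in the fit. Each p was adjusted by Benjamini-Hochberg over all genes tested and called under 0.1. Standard errors are the size of the log2 fold change divided by the root of F, and are not given where F was under 0.001. RUVr was written anew. On simulated data the estimates of changed genes were recovered, but with a hidden factor the RUVr fit also called many unchanged genes. DESeq2 1.42.0 was an alternative. Correlations used exact permutation tests in scipy 1.17.1, and intervals of counting are not given because reads without molecular identifiers are not independent molecules.

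All 10 members were named, with genes of the other lists that passed (some single genes of these lists are not reported here), and the 3 genes most like Dbp and Arntl among protein-coding genes with a mean of at least 50 reads. A well was called rich in glial transcripts above 2% of reads in glia markers. The members and lists were chosen with earlier results of these data known. Labels do not name samples left out by the study, so all were used, and genotype labels of the sorted wells that count upward from Thy1YFP16 were read as Thy1YFP16. Replicate numbers of uninjured and SCI mice are not said to pair animals.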

Additional observations from a re-analysis of the deposited data

Results flagged for a closer look

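In 24 of 70 groups of 4 to 6 mice, 2 of them among 20 in whole DRG, 1 mouse lay far from the others for a member, always as the highest. For normal values chance gives about 1 in 20, but CPM is skewed and bounded at 0 and the 10 members share mice, so the 24 cannot be set against that share. In whole DRG this was SCI mouse 3 for Per2 (11.54 CPM) and for Per3 (24.2 CPM).

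In sorted neurons the naive mice far from the rest were mouse 3 for Arntl (3.296 CPM), mouse 6 for Clock (71.09 CPM), Cry1 (11.03 CPM) and Tef (145.0 CPM), mouse 5 for Nr1d1 (357.7 CPM) and Nr1d2 (118.5 CPM), and mouse 2 for Dbp (2.555 CPM). At 1 day after SNI they were mouse 2 for Clock (69.81 CPM) and mouse 3 for Nr1d1 (148.9 CPM) and Dbp (8.476 CPM). At 3 days after SNI mouse 3 stood apart for Clock (123.0 CPM), Per3 (238.5 CPM), Nr1d1 (155.1 CPM), Nr1d2 (29.9 CPM), Dbp (18.18 CPM) and Tef (197.2 CPM), and mouse 2 for Per2 (1.786 CPM). After SCI they were mouse 3 for Nr1d1 (139.5 CPM) and mouse 1 for Dbp (2.632 CPM) at 1 day, and mouse 3 for Per2 (6.65 CPM), Per3 (379.6 CPM) and Dbp (19.93 CPM) at 3 days.

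Mouse 3 at 3 days after SNI also had the highest summed glia markers of all 22 mice, at 123328 CPM, and naive mice 5 and 6 had the highest of the naive mice. Their part in these values was not tested.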

How the results depend on the processing

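No member was called in sorted neurons under any alternative run. Their log2 fold changes moved as each mouse was left out. At 1 day after SNI they ranged from 2.69 to 4.33 for Arntl and -1.95 to -0.83 for Per3. At 1 day after SCI they ranged from 0.71 to 1.35 for Clock, 2.33 to 5.14 for Per2 and -1.34 to -0.00136 for Nr1d2. For SNI against SCI, Clock ranged from -1.66 to -0.53 at 1 day and 0.396 to 1.05 at 3 days. In whole DRG the count of members called went from 1 to 0 at an adjusted p under 0.05 and with the replicate block, and was 0 to 1 as each mouse was left out. The block turned the log2 fold change of Per3 to 0.0457, and leaving out 1 mouse gave log2 fold changes from -0.0199 to 0.253 for Arntl, -0.173 to 0.262 for Per3, -0.206 to 0.0818 for Nr1d1 and -0.100 to 0.0618 for Tef. Deviations of same-numbered mice correlated at -0.158, 0.053, -0.031 and 0.257, and those of differently numbered mice at -0.313 to 0.306. With values this scattered, whether the numbers pair the mice cannot be told. Genes called in whole DRG (408) became 202 at an adjusted p under 0.05, 929 by DESeq2, 127 with the replicate block and 104 to 640 with each mouse left out. In sorted neurons 122 and 104 were called at 1 and 3 days after SNI and 11 and 12 after SCI. Earlier counts from these data under the same setting were not the same, and the cause was not looked into. In the same order DESeq2 called 1447, 2148, 1087 and 1114, fits without RUVr factors 0, 0, 1 and 0, factors that were not centred 1, 2, 1 and 0, and the set as covariate 0, 0, 1 and 0. An adjusted p under 0.05 left 28, 27 and 5 in the first 3. A mean count of 10 gave 259 at 1 day after SNI. Without wells rich in glial transcripts 1378 and 1087 were called after SNI, 0 at 3 days after SCI and 143 for SNI against SCI at 1 day. Naive mice of the same day only gave 3 at 1 day after SNI, 1 at 1 day and 1 at 3 days after SCI. At 3 days after SNI they gave 91, 8 higher and 83 lower, against 84 higher and 20 lower with all naive mice. Leaving out each mouse gave 15 to 151, 9 to 710, 1 to 30 and 0 to 39, and 0 to 1 and 0 to 2 in the direct contrasts at 1 and 3 days. Without factors and without those wells, an alternative chosen after seeing the data, 38, 14, 0 and 0 were called, and 3 in the direct contrast at 1 day. The cause of these differences was not tested. Per2, Arntl, Dbp and Cry1 had 0 reads in many sorted wells.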
